A study of Lemna gibba and Lemna japonica and Spirodela polyrhiza with 12 samples.

Results

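Wa8730 is an accession of Wolffia australiana, a rootless duckweed that floats on still water. Small RNAs of its whole fronds, from sterile culture with no treatment named, were sequenced in 3 biological replicates, as part of a series of 12 libraries from 4 duckweed accessions. The deposited list gives small RNA loci, stretches of the genome covered by small RNA reads, called on all 3 replicates together. Described here are the loci of Wa8730 on its numbered chromosomes: every listed locus that lies on chr1 to chr20, with or without a size call. They numbered 36912 of the 37162 loci of Wa8730 and of the 79572 loci of the series. The other 250 lay on 52 scaffolds (195 loci), on the sequence named chrC (53) and on that named chrM (2). Because the replicates are pooled, no spread between them could be measured, and no comparison below carries a test. Intervals are 95% Wilson intervals or come from them; they cover counting error only, and neighbouring loci are not independent of each other.

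In plants, most 24 nt small RNAs are small interfering RNAs. In Arabidopsis thaliana they are cut by a Dicer-like enzyme from double-stranded RNA that starts as transcripts of RNA polymerase IV, and they guide DNA methylation to transposons and other repeats. Small RNAs of 21 and 22 nt mostly act on messenger RNAs. Among them are microRNAs, cut from a folded single-stranded precursor, the hairpin, and secondary small interfering RNAs cut from transcripts made double-stranded.

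The 36912 loci held 5614863 reads and spanned 351 Mb, measured on each chromosome from base 1 to the end of its last listed locus. The smallest held 4 reads. Loci called 24 nt numbered 29904, or 81.0% of the list (80.6 to 81.4), and held 699332 reads, 12.5% of all. Outside hairpins there were 1396 loci of 21 nt with 174838 reads and 876 of 22 nt with 97829 reads. The 116 hairpins held 4293214 reads, 76.5% of the total. A further 443 loci were called 23 nt, and 4177 carried no size call. The 24 nt loci thus formed a dense and shallow layer, with a median of 15 reads each, over which a few hairpins stood out in reads.

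Every chromosome carried this layer, though not at the same density. The 24 nt loci averaged 85.1 per Mb. Chromosome 14 had the most, 117.2 per Mb, followed by chromosome 20 with 116.6 and chromosome 17 with 107.1. Chromosome 8 had the fewest, 59.0 per Mb, with chromosome 12 at 64.2 and chromosome 4 at 68.7. The highest density was 1.99 times the lowest (1.84 to 2.14), and 3.95 times when loci of at least 50 reads alone were counted. Reads followed the same extremes, from 1219 reads in 24 nt loci per Mb on chromosome 8 to 3572 on chromosome 14. The share of the spanned length listed as 24 nt loci ran from 3.34% on chromosome 8 to 7.96% on chromosome 14. The median depth of a 24 nt locus varied little, between 13 reads on chromosome 8 and 16 on others. The mean differed more, from 19.6 reads per locus on chromosome 11 and 20.7 on chromosome 8 to 30.5 on chromosome 14. Longer chromosomes were not denser: spanned length and 24 nt loci per Mb gave Pearson's r = -0.23 and Spearman's rho = -0.18 over the 20 chromosomes, which share the same pooled libraries.

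Across chromosomes, the densities of the other classes followed that of the 24 nt loci weakly at most. Loci of 21 nt ran from 3.06 per Mb on chromosome 16 to 5.31 on chromosome 18, and loci of 22 nt from 1.79 on chromosome 11 to 3.28 on chromosome 17. Over the 20 chromosomes, the density of 24 nt loci gave Pearson's r = 0.18 with that of 21 nt loci and 0.13 with that of 22 nt loci. With hairpins it was 0.15, with 23 nt loci 0.29 and with loci of no size call 0.36. Hairpins ranged from 1 on chromosomes 18 and 20 to 14 on chromosome 2. Counted as a share of the list, 24 nt loci made up 74.5% of the loci of chromosome 8 (72.2 to 76.7) and 84.9% of those of chromosome 20 (82.5 to 87.0).

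Chromosome ends were richer in 24 nt loci than the middle. The outer 10% of the spanned length on each side held 110.9 loci per Mb and the central 80% held 78.7, a ratio of 1.41 (1.37 to 1.45). The ends were denser on 19 of 20 chromosomes. Chromosome 8 had the steepest contrast, 107.0 per Mb in the ends against 47.0 in the middle, a ratio of 2.28. It was followed by chromosome 18 at 1.94 (121.0 against 62.3) and chromosome 5, also at 1.94 (121.0 against 62.4). Chromosome 10 was the exception, at 0.90 (63.8 against 70.9), and chromosomes 12 and 19 were close to even at 1.04 and 1.06.

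The gradient was steepest in the last stretch of sequence. Within 0.1 Mb of an end there were 983 loci of 24 nt, or 246 per Mb, which is 2.89 times the chromosome average. Density fell to 124 per Mb between 0.1 and 0.25 Mb, to 117.5 up to 0.5 Mb and to 96.9 up to 1 Mb. Farther in the fall was uneven, with 98.45 between 1.5 and 2 Mb and values of 79.6 to 81.1 between 3 and 7.5 Mb. Between 7.5 and 10 Mb it was 69.8, a range that only 12 of the 40 ends, those of the longer chromosomes, span in full. Each of the 40 outer stretches of 100 kb held between 10 and 46 loci of 24 nt, with a median of 22.5, against an average of 8.51 per 100 kb. All 40 exceeded the mean of their own chromosome, and 33 exceeded it by more than a factor of 2. Far ends are set by the last listed locus, which was of the 24 nt class on 18 chromosomes and without a size call on 2. Starts are not set by a locus, and the 20 starts alone held 17 to 46 loci with a median of 22. On 5 chromosomes the first locus began at base 1 of the assembled sequence, and all 5 were of the 24 nt class, the deepest with 728 reads at the start of chromosome 6.

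Not every end kept its excess over a whole Mb. The outer 1 Mb was denser than the mean of its chromosome at 36 of 40 ends, and at both ends of 16 chromosomes. The fullest ends were the starts of chromosome 5 with 186 loci, of chromosome 14 with 173 and of chromosome 13 with 165. The poorest was the far end of chromosome 12 with 20 loci, then the start of chromosome 10 with 37 and the far end of chromosome 17 with 71. Even at the far end of chromosome 12, 10 of the 20 loci lay in the last 100 kb.

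**Figure D1:**
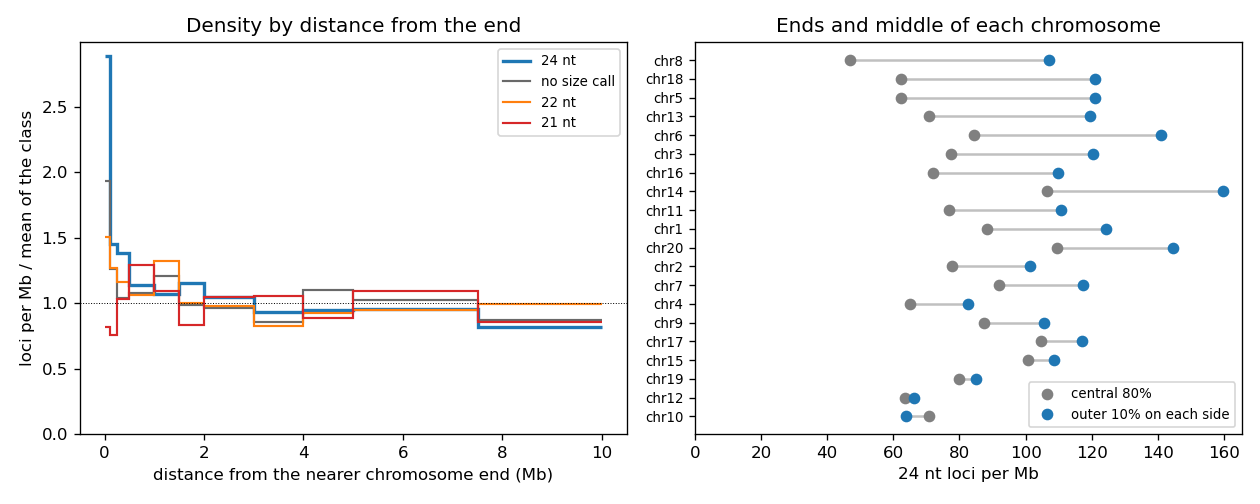
Left, loci per Mb by distance from the nearer chromosome end in Mb, divided by the mean density of the class on the chromosomes, for 24 nt loci, loci with no size call, 22 nt and 21 nt loci. Right, 24 nt loci per Mb in the outer 10% on each side (blue) and the central 80% (grey) of each chromosome. The 24 nt curve starts at 2.89 times its mean in the outermost 0.1 Mb, and the blue point lies to the right of the grey one on 19 of 20 chromosomes.

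The typical 24 nt locus at the ends differed little from one elsewhere, but deep loci were more concentrated at the ends. They held a median of 16 reads against 15 in the middle, 27.0% against 24.5% were longer than 600 bp, and 93.4% against 92.7% gave reads from both strands. In the outer 100 kb the median was 18 reads and 35.6% exceeded 600 bp. Counted by reads in place of loci, the ratio of ends to middle was 1.59. For 24 nt loci of at least 50 reads it was 1.83 (1.68 to 2.00), against 1.41 for all 24 nt loci.

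Over all their loci, the other classes had lower ratios of ends to middle than the 24 nt class. For 21 nt loci the ratio of ends to middle was 1.03 (0.90 to 1.17), with 4.06 per Mb in the ends and 3.95 in the middle. In the outermost 0.1 Mb, where 24 nt loci peaked, 21 nt loci were at 3.25 per Mb, 13 loci in all. For 22 nt loci the ratio was 1.15 (0.98 to 1.35), and 1.28 (1.05 to 1.58) for those of at least 10 reads. For hairpins it was 0.99 (0.63 to 1.56), an interval wide enough to hold the value of the 24 nt class. Loci with no size call lay between, at 1.21 (1.13 to 1.31), and reached 23.0 per Mb in the outermost 0.1 Mb against a mean of 11.9. Ratios were also taken for loci of 10 to 99 reads from both strands. They were 1.39 for the 22 nt class, 1.48 for loci with no size call and 1.01 for the 21 nt class, without intervals. No 24 nt ratio was taken for that subset, and the 1.41 of the class covers its loci of every depth and strand.

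The 24 nt loci thinned out in stretches of up to 4 Mb, most of them inside the chromosomes. A whole window of 1 Mb held 83.6 of them on average, from 8 to 186 over 341 windows. The 3 fullest were the first Mb of chromosome 5 with 186 loci, and chr10:12000001-13000000 and chr7:5000001-6000000 with 183 each (positions in this paragraph and below are those of assembly asm202106v1). The emptiest were chr2:13000001-14000000 and chr16:9000001-10000000 with 8 each, and chr3:8000001-9000000 with 11, a count shared by chr4:3000001-4000000 and chr16:8000001-9000000. Windows under 41.8 loci, 50% of the mean, made up 56 of the 341 and joined into 31 stretches on 17 chromosomes. Of these, 17 were 2 Mb or longer and 7 were 3 Mb or longer. The longest ran over 4 Mb of chromosome 4, from 1000001 to 5000000, with 109 loci of 24 nt. On chromosome 16, 3 Mb from 8000001 to 11000000 held 60, and on chromosome 18, 3 Mb from 2000001 to 5000000 held 58.

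Most chromosomes had such a trough. The lowest window of each chromosome fell within the central 80% of the length on 18 of 20 chromosomes and within the central 50% on 14. Windows placed at random would fall there in about 80% and 50% of cases, so these counts say little about position. Only whole windows were used, which leaves out the last partial Mb at each far end. On chromosomes 14 and 20 the lowest windows still held 53 and 83 loci. Other loci were thinned in the troughs too. The windows below were picked by their number of 24 nt loci, which by itself makes that class the most extreme. That the other classes changed less is therefore no result about them. In the 34 windows with the fewest 24 nt loci, 24 nt loci were at 0.21 of their mean over all windows, 23 nt loci at 0.42, loci with no size call at 0.47, hairpins at 0.52 (6 hairpins), 22 nt loci at 0.65 and 21 nt loci at 0.74. In the 34 with the most, where 24 nt loci were at 1.84 of their mean, 21 nt loci were at 1.00, 22 nt loci at 1.10, hairpins at 1.21 (14 hairpins), loci with no size call at 1.25 and 23 nt loci at 1.34. Over the 341 windows, the number of 24 nt loci gave Spearman's rho = 0.16 with that of 21 nt loci, 0.13 with 22 nt loci, 0.04 with hairpins and 0.52 with loci without a size call. These are descriptions over windows that share the same libraries and the same assembly.

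**Figure D2:**
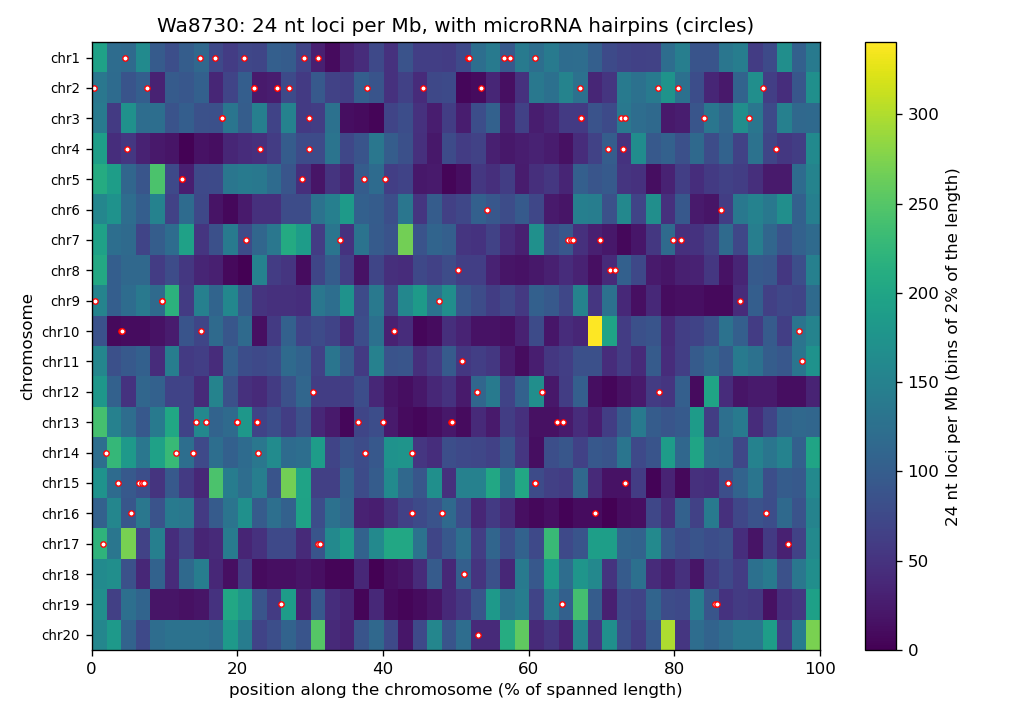
Density of 24 nt loci (colour, loci per Mb) in bins of 2% of the spanned length of each of the 20 chromosomes, with microRNA hairpins as circles. Bright bins stand at both edges of most rows, dark blocks such as the one on chr16 between 58% and 80% of the length mark the troughs, and circles fall on both bright and dark bins, with 6 hairpins in the 34 windows of 1 Mb with the fewest 24 nt loci and 14 in the 34 with the most.

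At close range 24 nt loci were gathered in groups. The median gap from a 24 nt locus to the next was 1386.5 bp, while the mean was 11160 bp. The median depends on where the list separates loci: it was 4011 bp with loci at most 500 bp apart merged, and 21638 bp among loci of at least 50 reads. The standard deviation of the gaps was 2.21 times their mean, where loci placed independently at a constant density would give about 1. Gaps of at most 1 kb made up 44.0% of all 29884 gaps (43.5 to 44.6) and only 1.39% of their summed length. Gaps of more than 50 kb made up 6.21% of the gaps and 48.1% of the length. Of 35124 windows of 10 kb, 64.8% held no 24 nt locus, and 8.30% of the windows were enough to hold 50% of the loci.

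On a log scale the gaps fell into a pair of humps. The fullest bin lay between 631 and 794 bp with 1287 gaps, the trough between 7.94 and 10 kb with 640, and a further maximum between 25.1 and 31.6 kb with 871. Over intervals of equal width on that scale, 2523 gaps of 20 to 40 kb stood against 2008 of 7 to 14 kb. The longer interval held more gaps on 18 of 20 chromosomes, with the ratio of the 2 counts running from 0.94 on chromosome 17 to 1.88 on chromosome 8. Both intervals take in the trough and the upper maximum of these same gaps, so the split by chromosome is no separate support for the humps. With at least 10 reads per locus both humps were there, with 461 gaps in the trough and 664 at the upper maximum. With loci of every class pooled both humps were still there, with 1064 gaps in the trough between 7.94 and 10 kb. The upper maximum, of 1224 gaps, then lay between 15.85 and 19.95 kb, outside both intervals. The counts of the intervals turned round, 3236 gaps of 20 to 40 kb against 3401 of 7 to 14 kb.

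**Figure D3:**
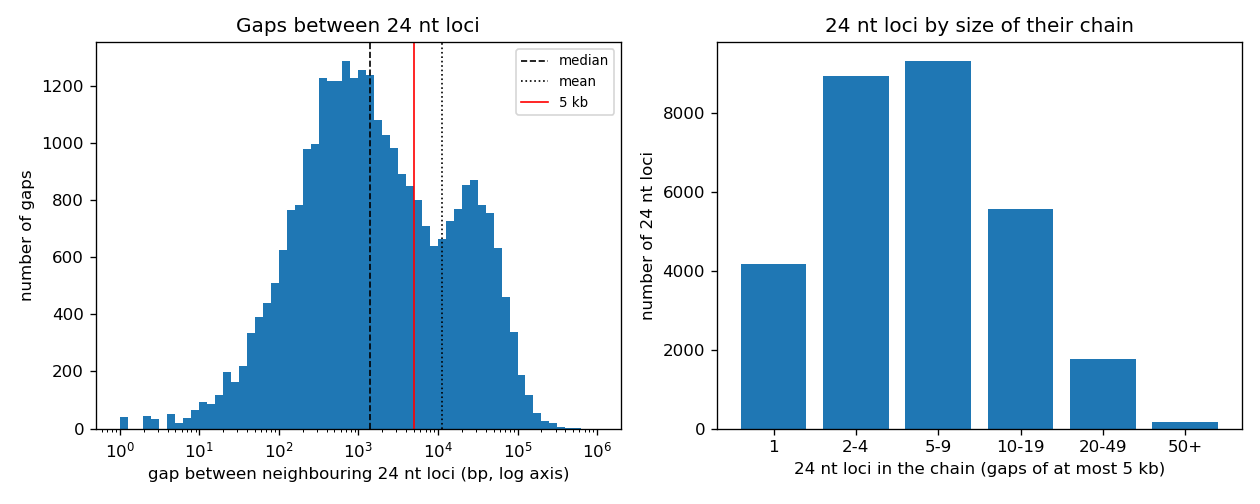
Left, number of gaps between neighbouring 24 nt loci by length in bp (log axis, 10 bins per factor of 10), with the median, the mean and the 5 kb limit used for chains. Right, number of 24 nt loci by the size of the chain they belong to. The gaps show a maximum below 1 kb and another near 30 kb, and most loci sit in chains of 2 to 19 members.

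Joined where gaps were at most 5 kb, a limit that lies between the humps, the 24 nt loci formed 9441 chains. Only 4159 loci, 13.9%, stood alone. Chains of at least 5 loci numbered 1952 and held 56.2% of the 24 nt loci (55.6 to 56.7) and 68.3% of their reads, on 25.3 Mb or 7.19% of the spanned length. The median extent of these chains was 10.7 kb. When only the 2393 loci of at least 50 reads were kept and chains formed anew among them, 9.36% lay in chains of at least 5. That is not the share of deep loci in the chains of the full list. There, of 697 loci of at least 100 reads, 486 lay in chains of 5 to 19 and 92 in chains of 20 or more. Chains of 20 or more were few, 67, with 6.41% of the loci. The share of 24 nt loci in chains of at least 5 ran from 44.6% on chromosome 8 to 64.2% on chromosome 17. It was 62.1% in the ends and 54.1% in the middle. With a fixed limit of 5 kb, a higher density by itself raises this share. Whether loci at the ends were more grouped at equal density was not tested.

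The longest chain held 101 loci over 145 kb, chr7:8654924-8799786, at 43.4% of the length of that chromosome. Its loci held 2878 reads in all and 98.0% of them gave reads from both strands, and 46.6% of its extent was listed as 24 nt loci. Next came 60 loci over 93.0 kb at chr10:12135705-12228733 and 46 loci over 75.6 kb at chr8:4238185-4313800. No 21 nt locus, 22 nt locus or hairpin lay inside any of these 3 chains. These classes averaged 3.97, 2.49 and 0.33 per Mb over all chromosomes, so stretches this short would hold few of them anywhere. Their absence therefore says little about chains. Of the 11 other loci in the 3 chains, 10 had no size call and 1 was called 23 nt. The densest reading among the 10 longest chains was on chromosome 14, where 43 loci at chr14:678259-757466 held 3726 reads and covered 73.8% of the 79.2 kb.

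Loci in longer chains were also deeper. The median was 10 reads for loci standing alone, 13 in chains of 2 to 4, 17 in chains of 5 to 19 and 20 in chains of 20 or more. Loci over 600 bp made up 8.85%, 19.01%, 31.7% and 38.9% in the same order. Loci with reads from both strands made up 85.3%, 92.3%, 94.96% and 96.3%. Much of this moved with reads. Among loci of 10 to 20 reads, long loci made up 5.16% of those standing alone and 3.92% of those in chains of 20 or more, while those on both strands were 91.8% and 94.4%. Of 697 loci of at least 100 reads, 19 stood alone.

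The deepest 24 nt loci followed no single pattern. The first, chr2:24180759-24190372, was also the longest at 9614 bp and held 2355 reads in a chain of 8. The second, on the minus strand at chr20:365601-366026, held 1008 reads within 426 bp and stood alone, 23.2 kb from the nearest 24 nt locus. The third, chr14:13668920-13677583 with 963 reads, lay in a chain of 11 with neighbours 91 and 147 bp away. The others were chr5:17778150-17779775 with 863 reads in a chain of 2 and chr20:5232158-5240269 with 810 reads in a chain of 9. Even the deepest of them held 0.34% of the reads of the class.

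Unbroken runs are stretches of the list in which no locus of another class comes between. There were 4409 runs with a median of 4 loci, and runs of 10 or more held 58.2% of the 24 nt loci (57.7 to 58.8). As 24 nt loci made up 81.0% of the list, many long runs would arise in a random order too. Of the neighbours of 24 nt loci in the list, 85.3% were 24 nt loci. The longest had 53 loci over 193 kb, chr7:2410580-2603539. It was followed by 49 loci at chr5:2066066-2352261 and 48 at chr12:163796-456861. Runs reached across long gaps, of up to 56.6 kb in the longest. They were mostly ended by loci with no size call, the most numerous of the other classes. When these loci were passed over, runs of 10 or more held 84.9% of the 24 nt loci.

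The longest gaps between 24 nt loci held little else. The longest was 624 kb, chr8:3395688-4020017, and contained a single 21 nt and a single 22 nt locus with 46 reads together. The next 4 were 469 kb at chr3:9182568-9651139, 414 kb at chr18:3449975-3864346, 385 kb at chr11:9969208-10353773 and 363 kb at chr16:8809358-9172220. Of these the gap on chromosome 18 was the busiest, with 4 loci of 21 nt, 1 of 22 nt and 1 of 23 nt, and 3542 reads. Gaps over 100 kb numbered 412 and took up 61.6 Mb, 17.5% of the spanned length. They held 224 loci of 21 nt, 16.0% of that class, 120 of 22 nt (13.7%), 27 hairpins (23.3%) and 527 loci with no size call (12.6%). So 21 nt loci were about as frequent there as elsewhere, at 3.64 per Mb against 3.97 over all chromosomes. The assembled sequence was not used here, so an empty stretch cannot be told from unresolved sequence or from repeats to which reads were not assigned.

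The next question was where the other classes lie relative to the 24 nt loci. Distances ran from the midpoint of a locus to the nearest 24 nt locus, and the background was the share of chromosome sequence outside 24 nt loci that lay as close. Within 5 kb that background was 32.9%. Listed loci do not overlap, and a midpoint is therefore rarely closer than about 210 bp, the extent of a median locus on either side of its centre; with sequence nearer than that left out, the background was 30.7%. For comparison, 86.1% of the 24 nt loci had another within 5 kb of their edges.

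As a whole class, loci of 21 nt lay slightly farther from 24 nt loci than chromosome sequence did. Of the 1396, 27.5% had a 24 nt locus within 5 kb (25.2 to 29.9). Their share was below that of the sequence on 16 of 20 chromosomes, with the nearest 210 bp kept in the background. Their median distance was 11.5 kb, against 9.63 kb for sequence, again with the nearest 210 bp kept. At 2 kb the share was 12.8% (11.1 to 14.6) against 17.7% of sequence, or 15.0% with the nearest 210 bp left out. Loci of 21 nt with reads from a single strand had a share of 24.8% (21.7 to 28.2) and were below the sequence on 17 of 20 chromosomes. Those with both strands had 29.9% (26.7 to 33.3), an interval that holds both backgrounds, 32.9% and 30.7%, and were below on 12 of 20. With 100 or more reads the share was 20.6% (15.6 to 26.6), and with under 10 reads it was higher, 119 of 350 loci (29.2 to 39.1%). Among the neighbours of a 21 nt locus in the list, 55.2% were 24 nt loci, which make up 81.0% of the list, and 21.3% were 21 nt loci, which make up 3.78%.

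The 21 nt loci with most reads outside hairpins were all on a single strand, in surroundings of different density. The first, chr5:5681203-5682315, held 22670 reads, 13.0% of the class, with the nearest 24 nt loci 18.8 and 30.8 kb away and 3 within 50 kb. The second, chr15:837757-838181, held 18559 reads and had a 24 nt locus 4.51 kb to its left and 13 within 50 kb. The third, chr2:8281830-8282253 with 7991 reads, had its nearest 24 nt neighbour 12.3 kb away and 17 within 50 kb. Points set every 10 kb along the chromosomes had a median of 7 within 50 kb.

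Loci of 22 nt lay closer to 24 nt loci than chromosome sequence did, and those with reads from both strands closer than those on a single strand. Of all 876, 46.3% lay within 5 kb of a 24 nt locus (43.1 to 49.7), above the sequence on 20 of 20 chromosomes, and their median distance was 5.79 kb. The share was 53.1% (49.2 to 57.02) in the 623 with both strands and 29.6% (24.4 to 35.5) in the 253 on a single strand. Among loci of 10 to 99 reads the shares were 56.1% (50.7 to 61.3) and 29.6% (21.5 to 39.3). The pattern ended at the deepest loci: of 63 with 100 or more reads, 15.9% were near (8.86 to 26.8), and of 33 with both strands among them 15.2% (6.65 to 30.9). The leading 22 nt loci belonged to this deep group. They were chr15:2912365-2913491 with 19790 reads and its nearest 24 nt locus 16.3 kb away, chr18:676687-677549 with 12870 reads and 19.3 kb, and chr5:2946299-2946723 with 9279 reads and 6.26 kb. Near the first 2, 9 loci of 24 nt lay within 50 kb on either side, and near the last 1.

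**Figure D4:**
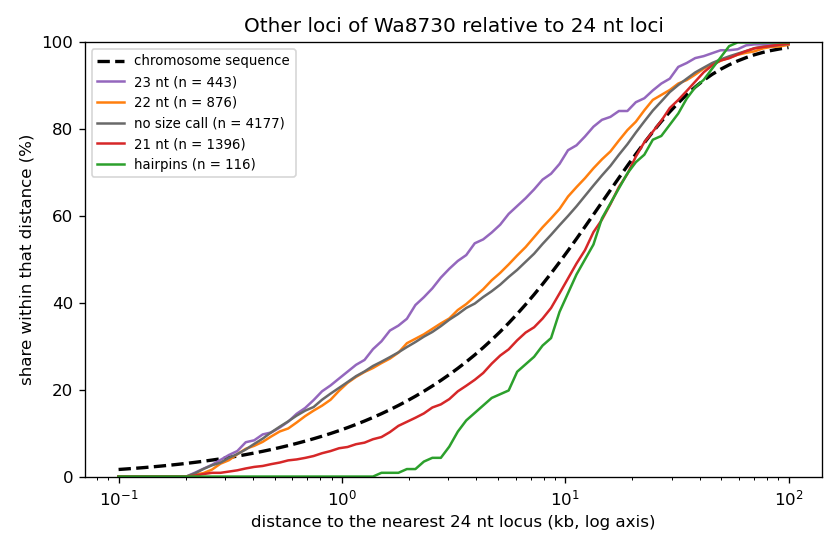
Share of loci in percent whose midpoint lies within a given distance in kb (log axis) of the nearest 24 nt locus, for 23 nt, 22 nt and 21 nt loci, loci with no size call and hairpins, with chromosome sequence outside 24 nt loci as the dashed line. At 5 kb the 22 nt curve is at 46.3%, sequence at 32.9%, the 21 nt curve at 27.5% and hairpins at 18.97%.

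Loci without a size call were split most sharply by strand. Within 5 kb of a 24 nt locus lay 71.2% of the 1846 with both strands (69.1 to 73.3) and 22.01% of the 2331 on a single strand (20.4 to 23.7). The former were above the sequence on 20 of 20 chromosomes and the latter below it on 20 of 20, with the nearest 210 bp kept in the background. At 10 to 99 reads the shares were 79.2% and 23.8%, so the split was as wide in that range of depth. Loci of 23 nt showed 69.1% with both strands and 36.02% on a single strand.

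**Figure D5:**
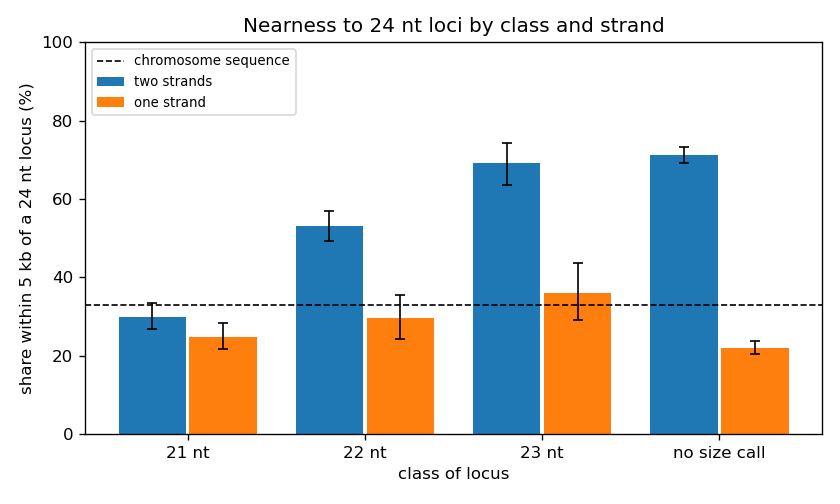
Share of loci in percent within 5 kb of a 24 nt locus, by class and by whether reads came from both strands (blue) or a single strand (orange), with 95% Wilson intervals; the dashed line is chromosome sequence. Bars for both strands stand above the line for 22 nt, 23 nt and loci with no size call, and near it for 21 nt loci.

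Among whole classes, microRNA hairpins had the smallest shares near a 24 nt locus at limits of up to 10 kb. Their median distance was 12.2 kb, the same as that of single-strand loci with no size call. None of 116 lay within 1 kb of a 24 nt locus (0%, which allows a share of up to 2.59% at 3 counts), where 10.8% of sequence did. Within 2 kb there were 2, or 1.72% (0.47 to 6.07), against 17.7% of sequence. Within 5 kb there were 22, or 18.97% (12.9 to 27.0). Farther out the difference closed, and at 20 kb the share was 71.6% against 73.2% for sequence. The 58 hairpins with 100 or more reads had a share of 6.90% within 5 kb (2.71 to 16.4), and the 58 with fewer 31.0% (20.6 to 43.8). Around a hairpin, 50 kb on either side held a median of 5 loci of 24 nt, compared with 7 around points set every 10 kb along the chromosomes, 7 around 21 nt loci, 8 around 22 nt loci and 12 around 24 nt loci.

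The hairpins that carry most reads sat in different settings. The first, chr11:16930771-16930982 on the minus strand, held 1613220 reads, 37.6% of all hairpin reads. It lay at 97.6% of the length of its chromosome, between 24 nt loci 4.98 and 3.29 kb away, with 21 within 50 kb. The second, chr4:1138510-1138761 with 1356774 reads, lay in a trough: the nearest 24 nt loci were 40.9 and 135 kb off. The third, a 22 nt hairpin at chr3:19786737-19786862 with 467436 reads, had them at 9.27 and 22.8 kb and 22 within 50 kb. Together these 3 held 80.1% of the hairpin reads.

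Many of the shallow hairpins were of 2 like geometries. This group was singled out after the values had been seen. Of the 116 hairpins, 27 were exactly 115 bp long with a 21 nt mature strand that starts at base 75 from the 5′ end of the hairpin. A further 12 were 117 bp long with the mature strand at the same base. All 27 of the former were listed on the plus strand and all 12 of the latter on the minus strand. The 39 lay on 14 chromosomes, held 14 to 146 reads each and made up 0.036% of hairpin reads. Their sequences were not used here.

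They also came in pairs. Of 11 pairs of hairpins less than 10 kb apart, 10 joined a 115 bp hairpin to a 117 bp hairpin to its right. In 5 of them, on 4 chromosomes, the gap was between 2887 and 2918 bp. An example is chr3:4212320-4212434 with 34 reads and chr3:4215322-4215438 with 16 reads. In the other 5 it ran from 3.98 to 6.92 kb. The eleventh pair, on chromosome 10, had a gap of 2908 bp, and its right member was of another length. No 24 nt locus lay between the hairpins of 8 of the 10 pairs. As 64.8% of all windows of 10 kb held no 24 nt locus and these gaps are shorter, that count says little about the pairs. Of the 39, 30.8% had a 24 nt locus within 5 kb (18.6 to 46.4), and of the other 77 hairpins 13.0% (7.21 to 22.3).

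Set beside 2 other accessions with chromosomes of the same naming, the rise toward the ends was not found in each. The ratio of ends to middle for 24 nt loci was 0.87 (0.74 to 1.02) in Sp9509 of Spirodela polyrhiza, from 1040 loci on 20 chromosomes, and 1.61 (1.47 to 1.76) in Lg7742a of Lemna gibba, from 2247 loci on 21 chromosomes. Their densities were far lower, 6.73 and 6.64 per Mb in the ends, and the lists start at different read counts. These values are given side by side, and no difference between accessions was tested.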

How the data were processed

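Frozen fronds gave RNA that was enriched for small sizes, built into NEXTflex small RNA libraries and read on a NextSeq 500, per the labels' protocols. Tools named by the submitters' processing notes are deepTools and fastp 0.20.1, with no role. ShortStack loci were called by the authors on the pooled replicates against assembly asm202106v1, per the files. No source used here gives alignment settings, placement of reads at repeats or locus thresholds. Values are deposited read counts per locus, not normalized. Mature and star lines repeat hairpin reads and served only for the geometry of hairpins. Total library depth was not used; the reads in loci set the counting precision.

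The members and lists were chosen with earlier results of these data known. Loci named were the 3 hairpins, 3 other 21 nt, 3 other 22 nt and 5 24 nt loci with most reads, the longest 24 nt locus, the 5 longest gaps, the 3 longest runs and chains, and the 3 highest and lowest windows, chromosomes and ends; loci outside this rule were chosen after their values were seen. Ends were the outer 10% on each side, loci were placed by midpoint, chains joined gaps of at most 5 kb. Genome sequence and gene annotation were not used here, so no sequence is printed and no locus is placed in a gene. Alternatives were read minimums, other limits, merged loci and chromosomes left out in turn. Measures were checked on simulated loci of known arrangement. Computations used Python 3.11.15, pandas 2.3.3, numpy 2.4.6, statsmodels 0.14.6 and matplotlib 3.10.9.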

Additional observations from a re-analysis of the deposited data

Results flagged for a closer look

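The 250 listed loci of Wa8730 outside the numbered chromosomes are data that no comparison above uses. They held 34982 reads. The scaffolds held 195 of them, 110 called 24 nt, with 6302 reads in all. The sequence named chrC held 53 with 28648 reads, 46 of them with no size call and 1 called 24 nt. The sequence named chrM held 2, both without a size call, with 32 reads. No explanation was weighed.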

How the results depend on the processing

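No ratio of ends to middle whose interval lay apart from 1 changed sides of 1 under the alternatives run. Of 79 alternatives to 13 results, 41 stayed within the counting interval of the reported value, or within 1.5 times for the number of loci, and 38 moved outside it. The ratios of ends to middle of 21 nt loci, 22 nt loci and hairpins stayed within theirs under each alternative run. A minimum of 50 reads per locus moved values most: 2393 loci of 24 nt, a ratio of densest to sparsest chromosome of 3.95, a ratio of ends to middle of 1.83, a median gap of 21638 bp and 9.36% of loci in chains of 5 or more. With at least 10 reads, ends to middle was 1.46, the median gap 1232 bp, the share in chains 55.3% and in runs 68.5%, and the shares near a 24 nt locus were 19.9% for 21 nt loci, 40.8% for 22 nt loci and 26.2% for sequence. With chromosomes left out in turn, the density ratio fell to 1.83, the shares in chains and runs reached 56.7% and 58.8%, and sequence ran from 32.5% to 33.2%. Ends set at 5%, 20% or 1 Mb gave ratios of 1.57, 1.27 and 1.503. Chains joined at 2 or 10 kb held 37.5% or 67.5%. Runs held 84.9% with loci of no size call passed over and 60.8% with 23 nt loci passed over. Nearness within 2 and 10 kb was 12.8% and 44.6% for 21 nt loci, 31.1% and 63.7% for 22 nt loci, 1.72% and 40.5% for hairpins, and 17.7% and 51.1% for sequence. Alternatives added after seeing the data were these: merging 24 nt loci at most 500 bp apart gave a density ratio of 1.73, ends to middle of 1.33 and a median gap of 4011 bp; ends to middle was 1.59 by reads, 1.48 by listed length and 1.31 without the outer 100 kb; and 13.0% of hairpins were near without the group of like geometry. Apart from what each limit fixes by its construction, the cause was not tested.

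No paired analysis was possible because the lists pool the 3 replicates of an accession; for the same reason no replicate was left out. Depth limits loci of few reads, and a share over 116 hairpins is known to several percentage points.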

Other observations

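Loci of 23 nt lay closer to 24 nt loci than any other class did. Their median distance was 3.36 kb, and 57.1% of the 443 were within 5 kb (52.5 to 61.6), above chromosome sequence on 20 of 20 chromosomes. In the list, 72.3% of their neighbours were 24 nt loci, which make up 81.0% of the list, and 1.58% were 23 nt loci, which make up 1.20%. They were shallow, with a median of 8 reads. Loci with no size call, in contrast, neighboured each other in 25.7% of cases, against a share of 11.3% of the list.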
